A study of Mus musculus with 9 samples.

Results

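Transcript levels of 41 genes of the actin and microtubule cytoskeleton were compared between naive and activated mouse CD4+ T cells, and between activated cells of 2 genotypes. The genes were chosen by name and found in the expression table through their symbols and Ensembl identifiers. All 41 were among the 25759 genes of the table, and all 41 reached the mean of 0.5 FPKM (fragments per kilobase of transcript, scaled to the fragments mapped in the library) that a gene needed to be tested, as did 15126 genes in all. They encode 2 actins, 5 proteins of actin monomer binding and turnover, 7 subunits of the Arp2/3 complex, 3 subunits of capping protein, 3 promoters of filament nucleation, 4 chains of non-muscle myosin II, 5 crosslinkers and adhesion adaptors, 3 ERM proteins, 4 alpha-tubulins, 4 beta-tubulins and the tubulin-binding protein stathmin.

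Actin monomers assemble into filaments that push, pull and stiffen the cell cortex. The Arp2/3 complex starts branches on existing filaments, formins elongate straight ones, capping protein stops their growth, and myosin II contracts them. Microtubules are polymers of alpha- and beta-tubulin that carry vesicles and build the mitotic spindle. In T cells, actin flow shapes the contact with an antigen-presenting cell, and microtubules bring the centrosome and secretory vesicles toward that contact.

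The study had 3 groups of 3 RNA sequencing libraries. Naive wild-type (WT) cells came from lymph node and spleen and were sorted as CD4+CD44-CD62+ and negative for Foxp3GFP, a fluorescent reporter transgene that marks regulatory T cells. Activated WT cells were sorted as CD4+CD44+CD62L- and reporter-negative after total lymph node and spleen cells had been cultured for 3 days with ConA, a T cell mitogen, at 2 ug/ml and with LPS at 10 ng/ml. Activated knockout cells were made in the same way from BMPR1a/CD4cre conditional knockout mice, in which Cre recombinase is driven by the Cd4 promoter and is active from T cell development on. The BMPR1a protein is a receptor kinase through which bone morphogenetic proteins signal. All mice were C57BL/6, aged 8 to 12 weeks, and all carried the Foxp3GFP transgene, so that the controls of both comparisons shared it. There was no naive knockout group. The naive and activated groups differed in stimulation, in culture and in the sort gate, and these cannot be told apart. The labels leave out whether replicates were separate mice or cultures, so a p-value reflects the spread between libraries, which may be technical. In bulk RNA, fewer cells of a type and less RNA per cell cannot be told apart.

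The read depth is unknown, and between 12922 and 13395 genes per library reached 1 FPKM. For Bmpr1a the naive libraries gave 0.460, 0.311 and 0.336 FPKM, the activated WT ones 2.16, 2.92 and 1.40, and the knockout ones 0.957, 1.93 and 1.20. The last 2 groups overlapped (log2 fold change -0.41, SE 0.21, adjusted p = 0.261), and a value for the whole gene includes exons outside a deleted part, so it does not settle the genotype labels. Of the T cell genes, Cd4 was at 280 to 353 FPKM and Cd3e at 209 to 246 FPKM over the 9 libraries. These are 2 of 8 CD4 T cell markers. In activated compared with naive WT cells, 3 of the 8 were higher and 2 lower (limma adjusted p under 0.05). The 8 log2 fold changes ran from -0.58 to 1.08. In the knockout compared with activated WT none of the 8 passed, 6 log2 fold changes were negative, and 2 markers were lower without overlap. The 41 genes took 3.34, 3.44 and 3.47% of the summed FPKM of protein-coding genes in naive, 3.93, 3.66 and 3.66% in activated WT and 4.02, 3.99 and 3.98% in knockout libraries.

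Promoter sequences are shown for the members whose upstream 250 bases hold a CArG box, the element bound by serum response factor (SRF), which is known to act on actin and actin-binding genes. RefSeq entries on GRCm38.p6 were matched for 37 of the 41 members, with 44 promoters. Actb, Diaph1, Tubb6 and Stmn1 had no matched entry, so their promoters were not searched. The CArG box was sought on both strands in the 250 bases before to 50 bases after each start, and was found in 4 of the 44 member promoters (9.091%). It was in 1.629% of the 32851 promoters of the table and in 1.268% of the 11676 promoters of tested genes. The boxes, in capitals below, begin 90 bases upstream of the start in Actg1, 227 in Vcl, 50 at the second listed start of Myl6 and 250 in Arpc4. Each line gives the 250 bases before the start, 5′ to 3′ on the strand of the gene.
Actg1, chr11:120348496-120348745, minus strand: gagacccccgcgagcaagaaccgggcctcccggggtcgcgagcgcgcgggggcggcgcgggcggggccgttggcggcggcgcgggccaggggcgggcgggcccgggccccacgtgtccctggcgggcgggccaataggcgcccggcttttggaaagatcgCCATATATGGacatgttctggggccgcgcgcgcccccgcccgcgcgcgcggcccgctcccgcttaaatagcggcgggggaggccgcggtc
Vcl, chr14:20929148-20929397, plus strand: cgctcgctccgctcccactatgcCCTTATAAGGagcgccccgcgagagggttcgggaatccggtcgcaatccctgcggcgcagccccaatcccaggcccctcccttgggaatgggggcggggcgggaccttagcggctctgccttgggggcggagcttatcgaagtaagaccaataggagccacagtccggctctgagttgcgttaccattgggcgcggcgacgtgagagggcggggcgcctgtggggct
Myl6, chr10:128493010-128493259, minus strand: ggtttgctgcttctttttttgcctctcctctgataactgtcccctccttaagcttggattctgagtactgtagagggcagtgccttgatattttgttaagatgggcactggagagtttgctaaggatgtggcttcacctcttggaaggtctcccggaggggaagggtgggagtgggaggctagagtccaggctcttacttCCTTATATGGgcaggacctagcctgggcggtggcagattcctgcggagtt
Arpc4, chr6:113377863-113378112, plus strand: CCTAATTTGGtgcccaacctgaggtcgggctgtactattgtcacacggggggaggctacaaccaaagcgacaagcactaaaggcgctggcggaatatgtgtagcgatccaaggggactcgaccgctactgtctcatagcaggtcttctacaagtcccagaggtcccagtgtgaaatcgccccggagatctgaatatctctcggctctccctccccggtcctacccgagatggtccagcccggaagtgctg
Among these genes, Actg1, Vcl and Arpc4 were called higher in activated WT than in naive cells, and Myl6 was not called. The CCAAT box (CCAAT on either strand) was in 31.818% of the member promoters and in 38.472% of those of tested genes, the TATA box (TATAAA) in 6.818 and 6.894%, and the GC box (GGGCGG) in 84.091 and 61.408%. A CArG box can contain the letters of the CCAAT or the TATA motif. A match is a description of these letters and not a measured binding site.

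In activated compared with naive WT cells, 25 of the 41 genes passed the test (limma adjusted p under 0.05 over all 15126 genes), 18 higher and 7 lower. Among the microtubule genes, Stmn1 rose 8.76-fold by the ratio of mean FPKM, Tuba1b, Tuba1c and Tubb5 rose between 2.05- and 2.20-fold, and Tuba4a fell to 0.386 of its naive level. On the actin side, Actg1 rose while Actb fell, capping protein and some Arp2/3 subunits rose, and Flna and Myh9 fell. The 18 higher genes make 43.9% of the members, where 26.2% of all tested genes were higher, and the 7 lower ones make 17.1%, where 25.8% of all were lower. The median log2 fold change of the members was 0.17, against -0.01 over all tested genes.

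**Figure D1:**
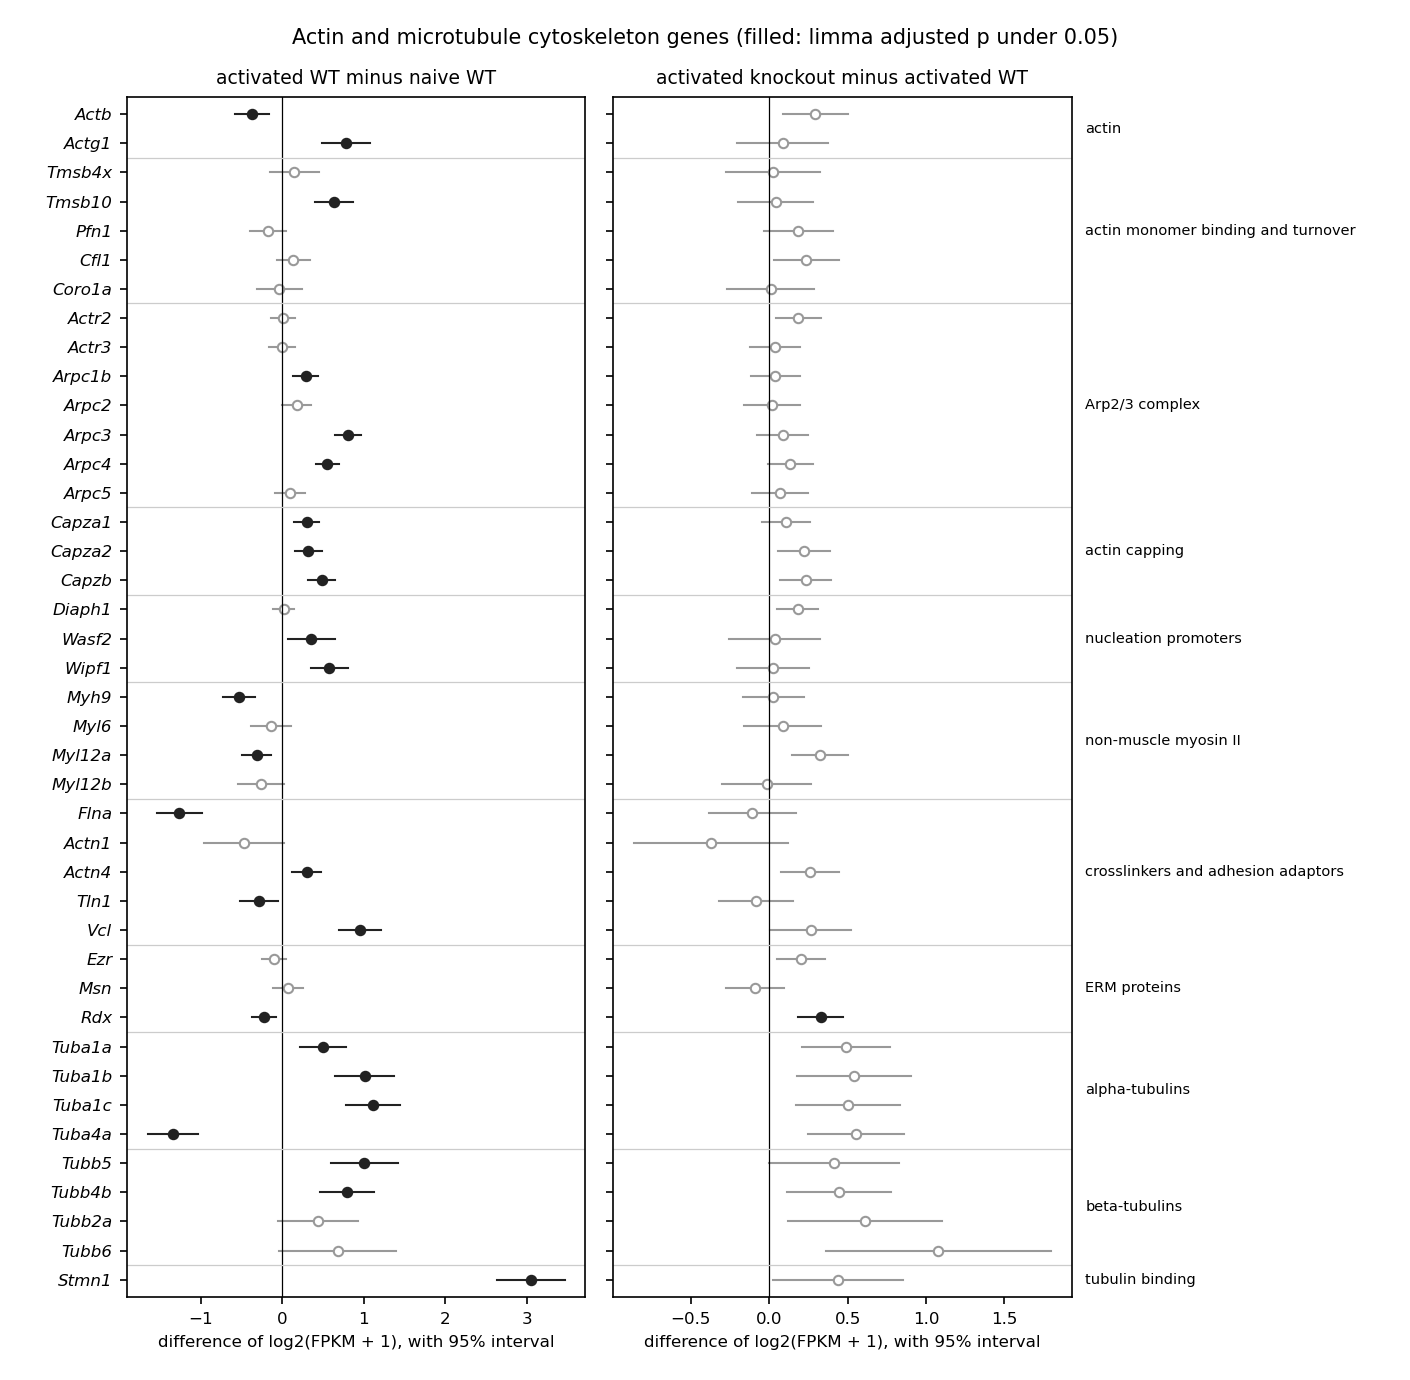
Difference of the mean log2(FPKM + 1) for the 41 genes, ordered by role, in activated WT minus naive WT (left) and activated knockout minus activated WT cells (right, with its own scale). Points are limma estimates from 3 libraries per group, lines are 95% intervals and filled points passed at an adjusted p under 0.05. Stmn1 at 3.05 and Tuba4a at -1.35 mark the ends on the left, and Rdx is the filled point on the right.

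The 2 actin genes moved in opposite directions. Actb, which encodes beta-actin, was at 2465, 2556 and 2741 FPKM in naive libraries, against 2146, 1907 and 1959 in activated WT. Every activated library lay below every naive one (log2 fold change -0.37, SE 0.09, adjusted p = 0.00992), and with quantile normalization the difference of -0.19 did not pass (adjusted p = 0.0997). Actg1, which encodes cytoplasmic gamma-actin, was at 632, 639 and 733 FPKM in naive libraries, against 1318, 1140 and 998 in activated WT. These groups did not overlap either, with Actg1 higher (log2 fold change 0.78, SE 0.13, adjusted p = 0.00144). Their sum was 3097, 3195 and 3474 FPKM in naive and 3464, 3047 and 2958 in activated WT libraries, so the sums overlapped. The share of Actg1 in that sum went from 20.5 ± 0.550% (SD, n = 3) to 36.4 ± 2.32%, a difference of 15.9 percentage points without overlap (two-sided exact permutation p = 0.1, the smallest that 3 against 3 libraries allow). In the Actg1 transcript, 56.7% of the 50-base words occur in other annotated genes, most of them in the pseudogene Gm12715, and in Actb 14.2%, so the counting of shared reads can affect the Actg1 value more.

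**Figure D2:**
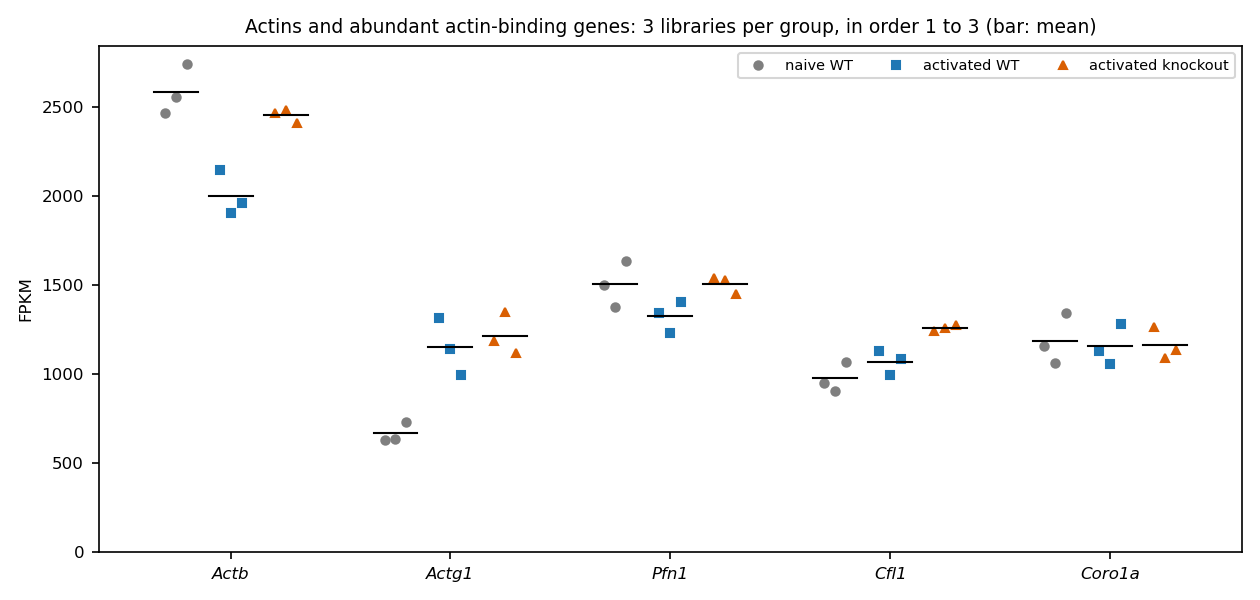
FPKM of the 2 actins and of 3 abundant actin-binding genes (linear axis) in each of the 9 libraries, with bars at the group means. Actb lies lower and Actg1 higher in activated than in naive WT cells, while the groups of Pfn1, Cfl1 and Coro1a overlap between naive and activated WT.

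Of the genes of monomer binding and turnover, 1 of 5 changed. Tmsb10, a thymosin beta that binds actin monomers, was at 2123, 1965 and 2311 FPKM in naive libraries, against 3481, 3089 and 3353 in activated WT. All activated libraries were above all naive ones (log2 fold change 0.63, SE 0.10, adjusted p = 0.00143). Its close relative Tmsb4x, the most abundant of the 41 genes, was at 4100, 4230 and 5056 FPKM in naive libraries, against 5475, 4622 and 4700 in activated WT, with overlap (log2 fold change 0.15, 95% interval -0.15 to 0.45, limma adjusted p = 0.373). Tmsb10 was 32.4 ± 1.49% of the sum of both in naive and 40.2 ± 1.39% in activated WT cells. In the Tmsb10 transcript, 43.5% of the 50-base words occur in other genes, mainly Gm9844, and in Tmsb4x none do. The counting of shared reads can therefore affect the value and the share of Tmsb10. Profilin 1 (Pfn1), which delivers monomers to growing ends, cofilin 1 (Cfl1), which severs filaments, and coronin 1A (Coro1a), a regulator of Arp2/3 and cofilin in blood cells, had log2 fold changes of -0.18, 0.13 and -0.04, and none passed.

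Of the 7 chosen subunits of the Arp2/3 complex, 3 rose and none fell. Arpc3 was at 162, 174 and 188 FPKM in naive libraries, against 319, 292 and 304 in activated WT, the largest difference of the 7 (log2 fold change 0.80, SE 0.07, adjusted p = 7.97e-05). Arpc4 went from 142, 143 and 160 FPKM to 221, 217 and 216 (log2 fold change 0.55, adjusted p = 0.000236). Arpc1b, which encodes the ARPC1 isoform that prevails in blood cells, went from 245, 251 and 265 FPKM to 305, 295 and 328 (0.28, adjusted p = 0.0091). In each of these 3 genes all activated libraries were above all naive ones, and the call of Arpc1b was lost with quantile normalization (limma adjusted p = 0.186). Arpc2 and Arpc5 had log2 fold changes of 0.17 and 0.09. Actr2 and Actr3, which encode the actin-related subunits that template the new branch, were at 133 to 135 and 314 to 345 FPKM in naive libraries, against 128 to 144 and 319 to 352 FPKM in activated WT, with log2 fold changes of 0.005 and -0.002. The 95% intervals of these last 2 differences ran from -0.14 to 0.15 and from -0.16 to 0.16. In Actr3, 49.8% of the 50-base words occur in other genes, mainly Gm8822. Of the isoform genes outside the 41, named after their values were seen, Arpc1a rose from a mean of 33.2 to 43.5 FPKM (0.38, limma adjusted p = 0.00215) and Arpc5l had a log2 fold change of 0.02.

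All 3 subunits of capping protein rose. Capzb, the beta subunit, was at 210, 205 and 222 FPKM in naive libraries, against 316, 276 and 300 in activated WT (log2 fold change 0.48, SE 0.07, adjusted p = 0.000899). The alpha subunits Capza1 and Capza2 rose by less, with log2 fold changes of 0.30 and 0.32, and the groups did not overlap at any of the 3 genes. The call of Capza1 was lost with quantile normalization and with scaling to the sum of the other genes (limma adjusted p of at most 0.076), and 73.8% of its 50-base words occur in other genes, mainly the pseudogene Gm3608.

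Of the 3 promoters of nucleation, Wipf1 and Wasf2 passed. Wipf1, which encodes the WASP-interacting protein WIP, was at 93.6, 102 and 79.1 FPKM in naive libraries, against 141, 132 and 136 in activated WT (log2 fold change 0.58, SE 0.10, adjusted p = 0.00193). Wasf2, which encodes the WAVE2 protein that activates Arp2/3, went from 59.3, 56.1 and 41.7 FPKM to 69.2, 65.1 and 65.3 (0.35, limma adjusted p = 0.044). Its call was lost under 12 of 18 alternative settings, among them leaving out any 1 activated WT or knockout library. The limma adjusted p was 0.0515 to 0.188 where the call was lost, and the lowest over all 18 was 0.0258. The formin gene Diaph1 was at 52.2 to 53.7 FPKM in naive libraries, against 52.5 to 54.5 FPKM in activated WT, and did not pass (log2 fold change 0.02, 95% interval -0.11 to 0.15).

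Of the 4 chosen non-muscle myosin II chains, 2 fell and none rose. Myh9, the heavy chain, was at 280, 309 and 260 FPKM in naive libraries, against 194, 194 and 194 in activated WT. Every activated library was lower (log2 fold change -0.54, SE 0.08, adjusted p = 0.00123). The regulatory light chain gene Myl12a went from 228, 235 and 270 FPKM to 201, 188 and 198 (log2 fold change -0.32, limma adjusted p = 0.00986). The other regulatory chain gene, Myl12b, had a log2 fold change of -0.26 (adjusted p = 0.111), and the essential light chain gene Myl6 one of -0.14 (adjusted p = 0.29). Myl12a and Myl12b lie next to each other on chromosome 17. A further annotated gene model, also named Myl12b and absent from the expression table, overlaps exons of both. Of the 50-base words, 29.6% of those of Myl12a and 33.0% of those of Myl12b occur in other genes. For Myl12b all of these words occur in that further model. How the shared reads were assigned is unknown, so the values of both genes are uncertain.

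The crosslinkers and adhesion adaptors held the largest fall and the largest relative rise of the actin-associated genes. Flna, which encodes filamin A, a crosslinker that ties actin networks to membrane receptors (chromosome X, 74223461 to 74249820 on GRCm38, minus strand), was at 274, 272 and 319 FPKM in naive libraries, against 124, 126 and 108 in activated WT. All activated libraries were below all naive ones (log2 fold change -1.27, SE 0.12, adjusted p = 0.000109), and 3.6% of the tested genes had a lower fold change. Vcl, which encodes vinculin, a link between integrin adhesions and actin (chromosome 14, 20929398 to 21033676, plus strand), was at 0.387, 0.447 and 0.396 FPKM in naive libraries, against 2.09, 1.80 and 1.36 in activated WT. The mean of Vcl rose 4.26-fold, while its log2 fold change on the log2(FPKM + 1) scale was 0.95 (SE 0.11, adjusted p = 0.00031), since that scale compresses low values. Its naive mean of 0.410 FPKM lay below the filter of 0.5 FPKM, which Vcl passed through the activated groups (means 1.75 and 2.28). The 4.26-fold ratio therefore rests on naive values near the floor. The exons of Vcl overlap those of Ap3m1 on the opposite strand, whose mean was 24.1 FPKM over the naive and 26.9 over the activated WT libraries. Without a stated strand setting the reads of both cannot be told apart. Tln1, which encodes talin 1, an activator of integrins, went from 113, 117 and 96.8 FPKM to 90.1, 89.4 and 86.3 (log2 fold change -0.29, limma adjusted p = 0.0443), and lost its call under 8 of 18 alternatives, among them leaving out naive WT replicate 1 or 2, any 1 activated WT library or knockout replicate 2. Of the 2 alpha-actinins, which bundle filaments, Actn4 rose (log2 fold change 0.30, limma adjusted p = 0.0149), while Actn1 was at 186, 185 and 151 FPKM in naive libraries, against 106, 110 and 165 in activated WT. The third activated WT library lay within the naive range, and Actn1 did not pass (log2 fold change -0.47, limma adjusted p = 0.099). Without that library its difference was -0.67 and passed (limma adjusted p = 0.0233). The call of Actn4 was lost without activated WT replicate 1, with quantile normalization and with scaling to the sum of the other genes.

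**Figure D3:**
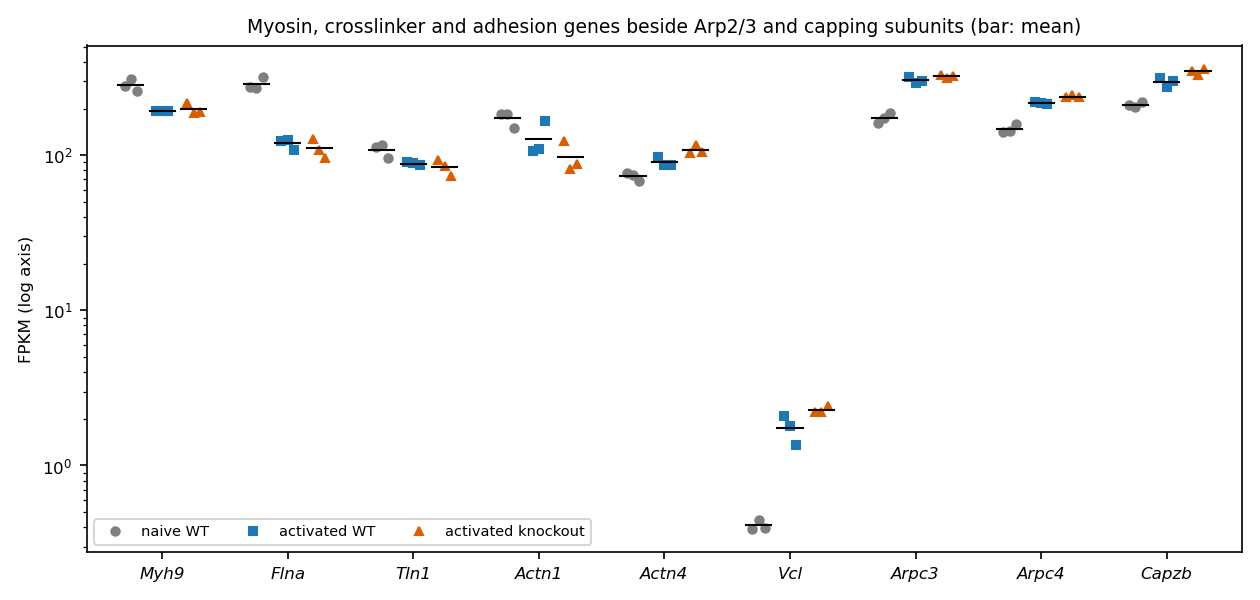
FPKM on a log axis of myosin, crosslinker and adhesion genes beside Arp2/3 and capping subunits in each of the 9 libraries, with bars at the group means. Flna and Myh9 are lower in both activated groups than in naive cells, Vcl, Arpc3, Arpc4 and Capzb are higher, and Actn1 varies within the activated WT group.

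Among the ERM genes, whose proteins (ezrin, radixin and moesin) tether the cortex to the membrane, Rdx fell. It was at 34.5, 34.9 and 32.5 FPKM in naive libraries, against 30.7, 28.9 and 27.1 in activated WT (log2 fold change -0.23, SE 0.06, adjusted p = 0.0169). The call was lost with median-of-ratios scaling and without naive WT replicate 1 (adjusted p of at most 0.0523). Msn, the most abundant of the 3, was at 328 to 380 FPKM in naive libraries, against 369 to 390 FPKM in activated WT, and Ezr at 141 to 152 and at 127 to 144 FPKM. Both overlapped between the groups and did not pass.

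Of the 8 chosen tubulin genes, 5 rose, 1 fell and 2 did not pass. Tuba1b was at 128, 124 and 139 FPKM in naive libraries, against 324, 263 and 215 in activated WT (log2 fold change 1.01, SE 0.16, adjusted p = 0.0012). Tuba1c went from 70.9, 70.3 and 77.1 FPKM to 195, 156 and 130 (1.11, SE 0.14, adjusted p = 0.000479), and Tuba1a from 82.5, 85.6 and 90.4 FPKM to 147, 121 and 102 (0.50, SE 0.12, adjusted p = 0.01). The groups did not overlap at any of these 3 genes. Tuba4a, the alpha-tubulin gene whose product lacks the encoded C-terminal tyrosine of the others (chromosome 1, 75214228 to 75219865, minus strand), was at 79.5, 79.1 and 92.4 FPKM in naive libraries, against 34.7, 29.9 and 32.2 in activated WT. It fell by 1.35 on the log2 scale (SE 0.13, adjusted p = 0.000133), in the lowest 3.2% of the fold changes of tested genes. The exons of Tuba4a overlap those of the kinase gene Stk16 on the opposite strand, whose mean was 62.8 FPKM over the naive and 45.1 over the activated WT libraries.

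Among the beta-tubulins, Tubb5 was at 210, 209 and 218 FPKM in naive libraries, against 532, 438 and 333 in activated WT (log2 fold change 1.005, SE 0.18, adjusted p = 0.00227). Tubb4b went from 66.1, 78.1 and 80.7 FPKM to 159, 128 and 108 (0.79, SE 0.14, adjusted p = 0.0024). Both were higher in every activated library. The less abundant Tubb2a (9.39 to 11.5 FPKM in naive and 11.7 to 16.2 in activated WT) and Tubb6 (1.49 to 2.31 and 2.07 to 5.30 FPKM) had log2 fold changes of 0.44 and 0.68 and did not pass (limma adjusted p = 0.121 and 0.102). Tubb2a passed without knockout replicate 2 (limma adjusted p = 0.0298) and Tubb6 without activated WT replicate 3 (0.0269).

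As shares of the summed FPKM of the 4 alpha-tubulins, Tuba4a went from 22.4 ± 0.662% in naive to 5.64 ± 0.942% in activated WT cells, Tuba1b from 35.0 ± 0.488% to 45.8 ± 0.740% and Tuba1c from 19.5 ± 0.161% to 27.5 ± 0.357%. The share of Tubb5 among the beta-tubulins was 71.0 ± 1.85% in naive and 74.2 ± 1.52% in activated WT cells. Over 10 shares and 3 pairs of groups, 30 comparisons were made. The lowest two-sided exact permutation p was 0.1, or 0.231 adjusted by Benjamini-Hochberg, and 6 of the 10 shares did not overlap between naive and activated WT cells. Shares within a family are parts of the same sum, so they are not independent results. No matching count over other gene families was made. The ratio of the summed alpha- to the summed beta-tubulins was 1.20 to 1.28 in naive and 0.977 to 1.04 in activated WT libraries. The alpha sum includes Tuba4a, whose share fell, and the ratio without it was not computed. Tuba1a and Tuba1b share 72.9% and 73.8% of their 50-base words with other genes and Tuba1c 61.0%, mostly with each other, so their single values are uncertain. Tuba4a and Tubb5 share 1.11% and 0.12%. Tubb4b shares 50.9%, mostly with the pseudogene Tubb4b-ps1, and Tubb2a 49.6%, mostly with Tubb2b, so the same limit holds for them.

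**Figure D4:**
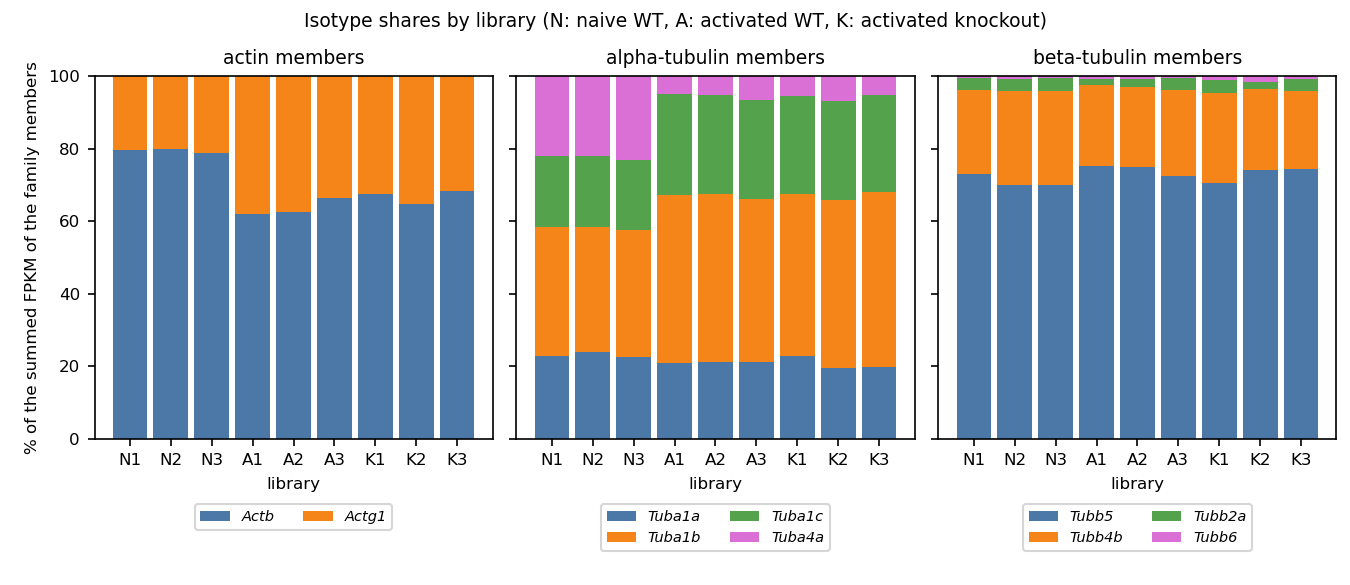
Share of each isotype in the summed FPKM of the listed actins, alpha-tubulins and beta-tubulins in each of the 9 libraries (stacked to 100%). Actg1 takes more of the actin sum and Tuba4a less of the alpha-tubulin sum in the 6 activated than in the 3 naive libraries.

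Stmn1, which encodes stathmin, a protein that binds tubulin dimers and destabilises microtubules (chromosome 4, 134468320 to 134473843, plus strand), was at 23.5, 25.1 and 22.7 FPKM in naive libraries, against 266, 201 and 158 in activated WT. No library of either group came near the other (log2 fold change 3.05, SE 0.18, adjusted p = 1.45e-05). In the Stmn1 transcript, 36.5% of the 50-base words occur in other genes, mainly Gm11223, so the counting of shared reads can affect its value. The summed FPKM of the 8 tubulins was 649, 658 and 710 in naive and 1409, 1154 and 939 in activated WT libraries. Beside it, the summed FPKM of 8 proliferation markers (Mki67, Top2a, Birc5, Ccnb1, Cdk1, Aurkb, Bub1 and Plk1) was 8.86, 12.4 and 8.28 in naive and 752, 549 and 400 in activated WT libraries, and all 8 rose. Within the activated WT group, replicate 1 was the highest library for 8 of the 9 tubulin and Stmn1 genes and for 8 of 8 proliferation markers, and replicate 3 was the lowest for 7 of 9 and 8 of 8. The part of cell division in the tubulin values was not tested.

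**Figure D5:**
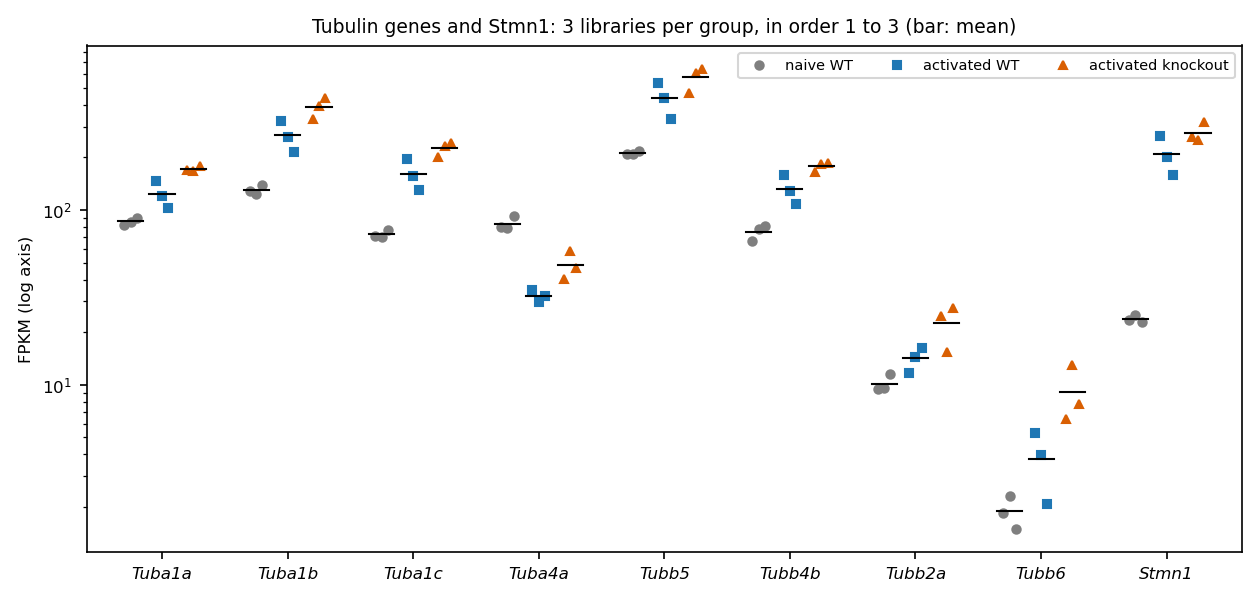
FPKM on a log axis of the 8 tubulin genes and Stmn1 in each of the 9 libraries, with bars at the group means. All but Tuba4a have higher means in activated WT than in naive cells, and all 9 have higher means in the knockout than in activated WT.

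Markers of other cells also differed between the naive and the activated groups. The summed FPKM of 7 neutrophil markers was 54.8, 672 and 108 in naive and 0.114 to 0.392 in activated WT libraries, led by S100a8 and S100a9. That of 6 erythroid markers was 63.6 to 84.2 in naive and 0.816 to 1.02 in activated WT libraries, that of 8 macrophage and monocyte markers 148 to 325 and 89.6 to 113, and that of 2 CD8 T cell markers 9.48 to 41.4 and 147 to 230. That of 5 NK cell markers was 3.00 to 5.80 and 0.666 to 0.973. That of 8 platelet and megakaryocyte markers was 27.8 to 32.5 in naive and 52.4 to 57.4 in activated WT libraries. Of it, Itgb3 made 26.1 to 30.0 and 48.8 to 56.0 FPKM, while Gp9, Gp1bb, Gp6, Treml1 and Ppbp were each below 0.5 FPKM in all 9 libraries. The summed markers of B cells (3.13 to 183 and 140 to 177), dendritic cells (1.20 to 6.61 and 1.76 to 2.10) and stromal cells (52.3 to 75.4 and 47.5 to 53.7) overlapped. Of the 9 stromal and smooth muscle markers, 1 reached the mean of 0.5 FPKM, so that sum came mostly from 1 gene. Without naive WT replicate 2, the library with the most neutrophil transcripts, 24 of the 41 genes were called, 18 higher (43.9%, against 23.4% of all tested genes) and 6 lower (14.6%, against 24.9%). The part of these cells in the member values was not tested.

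Between activated knockout and activated WT cells, 1 of the 41 genes passed the test. Rdx was higher in the knockout, and no member was called lower. The 8 tubulins and Stmn1 all had higher means in the knockout, by 0.41 to 1.08 on the log2 scale, but none of the 9 passed (limma adjusted p from 0.059 to 0.201). The 1 call makes 2.44% of the members, where 3.3% of all tested genes were called higher and 0.84% lower. At an unadjusted p under 0.05, 19 members (46.3%) and 25% of all tested genes differed. At 19 members the knockout and activated WT libraries did not overlap, and all 19 were higher in the knockout, which is 46.3% of the members where 22.8% of all tested genes had that pattern. None of the members was lower without overlap, where 8.36% of all genes were. These counts use unscaled FPKM and were not repeated after scaling. The factors of the median-of-ratios scaling were 0.971 to 0.982 in activated WT and 1.02 to 1.04 in knockout libraries. Log2 fold changes were positive for 36 of 41 members (median 0.18) and for 60.5% of all tested genes (median 0.06). The number of positive members fell to 26 with median-of-ratios scaling and to 27 with scaling to the sum of the other genes, while all 9 tubulin and Stmn1 values stayed positive under these and under quantile normalization.

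Rdx was at 30.7, 28.9 and 27.1 FPKM in activated WT and at 35.3, 36.9 and 37.2 in knockout libraries. The knockout libraries were all higher than activated WT, and above the 32.5 to 34.9 FPKM of naive cells (log2 fold change 0.33, SE 0.06, adjusted p = 0.0382). This call was lost under 10 of 18 alternatives, at limma adjusted p from 0.0684 to 0.139, while the lowest over all 18 was 0.00588. The 10 included the 3 other scalings and the 6 libraries alone. Leaving out naive WT replicate 1, activated WT replicate 2 or 3 or knockout replicate 2 or 3 also lost the call. The other ERM genes had log2 fold changes of 0.20 (Ezr, adjusted p = 0.113) and -0.09 (Msn, 0.524).

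None of the 4 alpha-tubulins passed in the knockout, and at all 4 its libraries lay above all activated WT libraries. Tuba1a was at 169, 167 and 179 FPKM, above the 147, 121 and 102 of activated WT (log2 fold change 0.49, 95% interval 0.21 to 0.77, limma adjusted p = 0.0639). Tuba1b was at 330, 396 and 435 FPKM, above 324, 263 and 215 (0.54, 0.18 to 0.91, adjusted p = 0.0881). Tuba1c was at 201, 233 and 242 FPKM, above 195, 156 and 130 (0.50, 0.17 to 0.83, adjusted p = 0.0857). In each of these 3 genes the lowest knockout library stood just above activated WT replicate 1 or, for Tuba1a, further above it. Tuba4a, at 40.2, 57.9 and 46.6 FPKM against 34.7, 29.9 and 32.2, lay under the naive values (log2 fold change 0.55, 95% interval 0.24 to 0.86, limma adjusted p = 0.059). Without activated WT replicate 1, Tuba1a and Tuba1c passed (limma adjusted p = 0.037 and 0.0498), and without knockout replicate 1, Tuba4a did (0.0279).

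Of the beta-tubulins, Tubb4b was at 164, 184 and 186 FPKM in the knockout and did not overlap with activated WT (log2 fold change 0.45, limma adjusted p = 0.11). Tubb5 was at 469, 606 and 644 FPKM, and knockout replicate 1 lay below activated WT replicate 1 (0.41, adjusted p = 0.201). Tubb6, at 6.38, 12.9 and 7.77 FPKM against 5.30, 3.95 and 2.07, had the largest difference of the 41 genes without passing (1.08, 95% interval 0.36 to 1.80, adjusted p = 0.0865). Its share of the beta-tubulins, 1.15 ± 0.379% against 0.625 ± 0.155%, was the 1 isotype share of 10 without overlap between these groups (exact permutation p = 0.1). Tubb2a, at 24.8, 15.4 and 27.6 FPKM against 11.7, 14.4 and 16.2, overlapped (0.61, adjusted p = 0.129). Stmn1 was at 262, 251 and 320 FPKM against 266, 201 and 158, also with overlap (0.44, adjusted p = 0.181).

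The summed tubulins were at 1404, 1671 and 1768 FPKM in the knockout, against 1409, 1154 and 939 in activated WT, and overlapped at activated WT replicate 1. The summed proliferation markers were 675, 801 and 823 FPKM in the knockout and 752, 549 and 400 in activated WT. None of the 8 markers was called, and all 8 log2 fold changes were positive (median 0.47). The summed CD8 T cell markers were 220 to 279 FPKM in the knockout, against 147 to 230 in activated WT, with overlap, and neither of the 2 was called (median log2 fold change 0.51). Within the knockout group, replicate 1 was the lowest library for 6 of 9 tubulin and Stmn1 genes and for 8 of 8 proliferation markers. Without activated WT replicate 3, the library with the least of both, the log2 fold changes of the 9 genes were 0.23 to 0.79, and without activated WT replicate 1 they were 0.49 to 1.31. The part of cell division and of CD8 T cells in this difference was not tested.

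Rdx was the 1 actin-associated gene to pass between the genotypes. Of the 32 members other than tubulins and Stmn1, log2 fold changes ran from -0.37 (Actn1) to 0.33 (Rdx), with a median of 0.08. Actb was at 2466, 2485 and 2409 FPKM in the knockout, above all activated WT libraries and within or near the naive range (log2 fold change 0.29, 95% interval 0.09 to 0.50, limma adjusted p = 0.1). Myl12a, at 254, 235 and 245 FPKM against 201, 188 and 198, was also above activated WT in each library (0.32, limma adjusted p = 0.0583), and passed with quantile normalization and without naive WT replicate 3 (0.0431 and 0.0358). Cfl1 was at 1244, 1259 and 1275 FPKM against 1132, 993 and 1086 (0.24, adjusted p = 0.15), and Capzb at 351, 332 and 363 FPKM against 316, 276 and 300 (0.23, adjusted p = 0.101). None of these 4 genes overlapped between the groups, and none passed. Flna was at 128, 108 and 96.3 FPKM against 124, 126 and 108 (-0.11, 95% interval -0.39 to 0.17, adjusted p = 0.621), and Myh9 at 217, 187 and 190 FPKM against 194 in each activated WT library (0.03, adjusted p = 0.898). Actg1 was at 1184, 1348 and 1120 FPKM against 1318, 1140 and 998 (0.08, 95% interval -0.21 to 0.38, adjusted p = 0.739). These last 3 overlapped between the groups.

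The comparison of activated knockout with naive WT cells shares libraries with both others and mixes genotype with activation. It called 28 of the 41 genes, 23 higher (56.1%, against 31.8% of all tested genes) and 5 lower (12.2%, against 25.1%). The 18 genes that were higher in activated WT were all among the 23. The other 5 were Actr2, Cfl1, Diaph1, Tubb2a and Tubb6, with log2 fold changes of 0.19, 0.37, 0.20, 1.05 and 1.75. The 5 lower genes were Flna (-1.38), Actn1 (-0.84), Tuba4a (-0.79), Myh9 (-0.51) and Tln1 (-0.38). Actb, Myl12a and Rdx, lower in activated WT than in naive cells, did not pass here. The call of Actr2 was lost under 8 of the alternatives, among them leaving out naive WT replicate 1 or 2 or knockout replicate 2 or 3. With quantile normalization the values of Actr2 and Diaph1 turned below 0, to -0.002 and -0.01.

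Other genes of the cytoskeleton were followed through 7 lists. Of all tested genes, 26.2% were higher and 25.8% lower in activated WT than in naive cells, 52.0% in both directions together. In the order below, 70, 58.1, 75, 45.5, 76, 50 and 71.4% of the tested genes of the lists were called. Of 20 tested activators and further subunits of Arp2/3 and parts of the WAVE complex, 11 rose and 3 fell in activated WT compared with naive cells (median log2 fold change 0.23). Cyfip1, a WAVE complex subunit (0.84), and Coro1b, a coronin (0.66), rose, and Wasl, which encodes N-WASP (-0.52), and Abi3 (-0.51) fell.

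Of 31 genes of actin turnover, capping, bundling and formins, 10 rose and 8 fell (median -0.04). The formins of the Diaphanous family split: Diaph3 went from a mean of 0.411 to 10.5 FPKM (2.99, limma adjusted p = 1.78e-05) and Diaph2 from 5.03 to 1.92 FPKM (-1.04, adjusted p = 0.000268), beside Diaph1, which did not pass. Capg, which caps filaments, rose (1.56), and Plec, which encodes the linker plectin, fell (-0.70). Of 8 other myosins 4 rose and 2 fell (median 0.15). Myo1f, a class I myosin of blood cells, went from 3.69 to 26.6 FPKM (2.65) and Myo6, which moves toward the minus end of filaments, from 19.6 to 1.41 FPKM (-3.09, limma adjusted p = 8.41e-06). Myo5a rose (0.59) and Myo18a fell (-0.67).

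On the microtubule side, 5 of 22 other tubulins, tubulin folding and gamma-tubulin complex genes rose and 5 fell (median 0.06). Tubb2b (1.15) and gamma-tubulin 1 (Tubg1, 0.48) rose, and the gamma-tubulin complex genes Tubgcp3 (-0.60) and Tubgcp6 (-0.55) fell. Of 25 microtubule-associated proteins and transport motors, 11 rose and 8 fell (median 0.03). Tacc3, a spindle protein, went from 3.54 to 51.4 FPKM (3.51, limma adjusted p = 1.17e-05) and the end-binding gene Mapre2 from 8.47 to 21.1 (1.23), while Dync1h1, the heavy chain of cytoplasmic dynein, went from 43.0 to 15.7 FPKM (-1.40) and Camsap2, a minus-end protein, from 7.45 to 2.19 (-1.39). Of 6 intermediate filament, lamin and nuclear envelope genes, Vim (1.87) and Lmnb1 (1.81) rose and Sun2 fell (-0.56). Among 7 genes of SRF and its cofactors, 2 rose and 3 fell (median -0.25). Srf itself went from 28.5 to 18.9 FPKM (-0.57, limma adjusted p = 0.000672), Elk3 rose (0.47) and Elk4 fell (-0.47).

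In the knockout compared with activated WT, 2 genes of these 7 lists passed, both higher. Of all tested genes, 3.3% were called higher and 0.84% lower in this comparison. Tubg1 was at 19.8, 17.3 and 16.6 FPKM in activated WT and at 26.3, 27.6 and 30.8 in knockout libraries (log2 fold change 0.63, SE 0.10, adjusted p = 0.0282). Lmna, which encodes lamins A and C, was at 1.31, 1.23 and 1.72 FPKM against 3.00, 7.43 and 6.00 (1.36, SE 0.25, adjusted p = 0.0351), with knockout replicate 1 lowest of its group. Neither overlapped between the groups. The medians of the 7 lists lay between 0.04 and 0.25, against 0.06 over all tested genes.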

How the data were processed

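The values are FPKM, which the authors deposited as 1 table for the 9 libraries. TopHat2, Cufflinks and Cuffdiff on GRCm38 are named per the submitters' processing notes. Tool versions, gene annotation, strandedness and the handling of reads with several matches were not given in the sources used here. FPKM keeps no counts, so depth is unknown and no counting interval was computed.

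Values were used unscaled. The 15126 genes whose mean reached 0.5 FPKM entered limma 3.58.1 (R 4.3.3) as log2(FPKM + 1) (empirical Bayes with an intensity trend, group means of all 9 libraries, two-sided, Benjamini-Hochberg over all genes, with calls at an adjusted p under 0.05). Fold changes on this scale understate changes of low genes. The fit was tested on simulated data. Isotype shares were compared by exact permutation tests. Positions, overlaps and shared 50-base words come from GENCODE for GRCm38, promoters from RefSeq (GRCm38.p6). The 18 alternatives changed the pseudocount, filter, scaling, libraries, weights or blocking.

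All 41 members may be named; of the other lists, per list and comparison, up to 2 called genes with the largest positive and 2 with the largest negative fold change, at a mean of at least 5 FPKM in the higher group. Members and lists were chosen with earlier results of these data known. One further list is not reported here.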

Additional observations from a re-analysis of the deposited data

How the results depend on the processing

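The count of members called in activated WT against naive cells was 22 to 31 over the 18 alternatives, against 25. Of all genes, 44.3% were called at the setting with 22, leaving out activated WT replicate 1, and 66.8% at that with 31, array weights. In the knockout against naive cells the count was 26 to 31, against 28. It was 26 without knockout replicate 3 (49.0% of all genes) and with scaling to the sum of the other genes (56.8%), and 31 with array weights (68.8%). Of the calls, 18 of 25 and 24 of 28 held under each alternative that tested the gene, and 9 of 16 and 5 of 13 members that did not pass did so under at least 1 alternative. In the knockout against activated WT, the count of 1 became 0 with median-of-ratios scaling and with scaling to the sum of the other genes. It also became 0 with only the 6 libraries compared and with the replicate block. In that order, these settings called 2.02, 2.29, 0.608 and 0.383% of all genes. The count ran from 0 to 3 when single libraries were left out, beside 0.423 to 6.86% of all genes. It was 18 with array weights, which gave naive WT replicate 1 the highest weight (4.05). Of the libraries compared here, activated WT replicate 2 (2.69) and knockout replicate 3 (1.97) weighed most, against 0.52 to 0.83 for the rest. The weighted difference thus leans on these libraries. These 18 (43.9% of the members, where that setting called 18.6% of all genes higher) were all higher and included 7 of the 8 tubulins and Stmn1. With quantile normalization the count was 1, for Myl12a in place of Rdx. The causes were not tested.

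With quantile normalization, the knockout against naive difference turned from 0.19 to -0.00188 for Actr2, from 0.20 to -0.0122 for Diaph1 and from 0.005 to -0.17 for Myl12a (limma adjusted p = 0.0311). Deviations of same-numbered libraries from their group means had small positive correlations (0.0027 to 0.054). The largest correlation was with the own number in 12 of 18 cases. Such small values do not settle whether the replicate numbers pair the samples. With the replicate block 24, 0 and 27 members were called in the 3 comparisons, beside 49.2, 0.383 and 54.4% of all genes. Without counts, the depth behind a value cannot be given, and 3 libraries per group limit the precision.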
